A study of Mus musculus with 18 samples.

Results

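The insulin-like growth factor (IGF) family was examined in the mouse aorta through 10 genes, made up of the 2 ligands Igf1 and Igf2, the 2 receptors Igf1r and Igf2r, and the 6 binding proteins Igfbp2 to Igfbp7. They were taken by symbol from a deposited table of 54281 genes by a rule that uses no measured value, although earlier results of these data were known when the family was chosen, and all 10 had enough reads to be among the 15210 genes tested. The study profiled the descending aorta, with its intimal, medial and adventitial layers, of 18 male C57BL/6 mice in 3 groups of 6. The LMNAG609G group, called HGPS here, carried the Lmna mutation of the mouse model of Hutchinson-Gilford Progeria Syndrome, a premature aging disease, at the endogenous locus in every cell that uses the gene, and was 64 to 75 d old. The 2-mo WT group was 62 to 95 d old (only 1 mouse was over 62 d) and the 24-mo WT group 609 to 762 d old. Each library came from 1 animal.

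IGF1 and IGF2 are small secreted hormones that act through the receptor tyrosine kinase IGF1R to drive growth and survival through the PI3K-AKT and RAS-ERK pathways. IGF2R instead takes IGF2 into the cell for destruction and also carries lysosomal enzymes. The binding proteins hold the ligands in blood and tissue, where they either withhold them from the receptor or keep them near it, and proteases that cut the binding proteins set the ligands free. In the arterial wall, smooth muscle cells, fibroblasts and macrophages all make members of this system.

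Library totals were 12413229 to 30844775 estimated reads, and the members had from 24 reads (Igfbp3, in a 2-mo WT mouse) to 50312 reads (Igfbp7, in an HGPS mouse) per library, and Igf2 and Igfbp3 had the fewest reads. Values below are counts per 1000000 reads (CPM) scaled by TMM factors, which correct for differences in library make-up. Differences were tested by edgeR's quasi-likelihood method, and a gene passed where its p, adjusted by Benjamini-Hochberg over all tested genes, was under 0.05. The study's own cut-offs served as a stricter call, namely a change of at least 1.5-fold together with p after adjustment under 0.001. Lmna itself averaged 577 ± 82.3 CPM in HGPS, 416 ± 60.7 in 2-mo WT and 418 ± 73.2 in 24-mo WT (SD, n = 6), although counts of whole genes cannot show a point mutation. The smooth muscle markers that define the tissue were abundant in every library, with 8 genes summing to at least 19696 CPM.

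The HGPS libraries also differed from the 2-mo WT libraries in markers of cell types. All 8 macrophage markers were higher (sum 851 to 1372 CPM in HGPS, 451 to 697 in 2-mo WT and 397 to 817 in 24-mo WT), as were all 8 brown fat markers (460 to 1704, 108 to 601 and 119 to 380 CPM) and 7 of 8 white fat markers. Of 8 smooth muscle markers 5 were lower (19696 to 27447, 29525 to 38055 and 30521 to 34757 CPM), and of 8 fibroblast markers 4 were lower (5870 to 9982, 8542 to 11108 and 5550 to 8009 CPM). All 6 markers of the cell cycle were higher in HGPS as well (sum 30.9 to 55.2, 9.17 to 16.1 and 8.38 to 16.4 CPM). Beside these counts, 22% of all tested genes were higher and 21.2% lower in HGPS against 2-mo WT. In the 24-mo against 2-mo WT comparison 5 of 8 fibroblast markers were lower and 1 smooth muscle marker was higher, while the macrophage, brown fat and smooth muscle sums of both WT groups overlapped. There 6.29% of all tested genes were higher and 5.38% lower. In whole aorta, fewer cells of a type and less RNA per cell cannot be told apart.

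The 4 members that met the study's cut-offs in at least one comparison were Igf1, Igfbp2, Igfbp5 and Igfbp6. Igfbp2 (chr1:72824503-72852474, plus strand) and Igfbp5 (chr1:72857932-72874884, minus strand) are neighbours on mouse chromosome 1 that point at each other, with 5457 bases and no annotated gene between their ends (GRCm38). Igfbp6 lies at chr15:102144362-102149511 and Igf1 at chr10:87858265-87937042, both on the plus strand. Of the other members, Igf2 (chr7:142650766-142666816, minus) and Igf1r (chr7:67952827-68233668, plus) lie on chromosome 7, Igfbp3 (chr11:7206086-7213923, minus) and Igfbp4 (chr11:99041244-99054392, plus) on chromosome 11, Igf2r at chr17:12682406-12769664 (minus) and Igfbp7 at chr5:77349240-77408041 (minus). The upstream sequences of the 3 binding proteins are shown because the neighbours Igfbp2 and Igfbp5 changed in opposite directions in HGPS but in the same direction with age, while Igfbp6 changed in HGPS. They run 5′ to 3′ toward the RefSeq transcript start on GRCm38.p6, without any base inside the gene as GENCODE annotates it, and capitals mark matches on either strand to 3 common promoter motifs. These are the GC box, with the letters GGGCGG, the TATA box, with the letters TATAAA, and the CCAAT box, which is named by its letters.
Igfbp2, chr1:72824230-72824479, plus strand: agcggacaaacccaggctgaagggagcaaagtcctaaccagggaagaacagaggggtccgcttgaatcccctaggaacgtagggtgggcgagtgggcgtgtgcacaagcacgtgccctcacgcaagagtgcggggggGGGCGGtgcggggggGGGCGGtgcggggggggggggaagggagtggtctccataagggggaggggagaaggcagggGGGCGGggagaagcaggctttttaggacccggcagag
Igfbp5, chr1:72874885-72875115, minus strand: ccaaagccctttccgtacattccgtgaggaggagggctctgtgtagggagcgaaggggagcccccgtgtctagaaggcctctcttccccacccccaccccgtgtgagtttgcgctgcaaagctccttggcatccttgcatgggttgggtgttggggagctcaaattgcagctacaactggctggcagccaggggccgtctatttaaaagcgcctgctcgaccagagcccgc
Igfbp6, chr15:102143936-102144185, plus strand: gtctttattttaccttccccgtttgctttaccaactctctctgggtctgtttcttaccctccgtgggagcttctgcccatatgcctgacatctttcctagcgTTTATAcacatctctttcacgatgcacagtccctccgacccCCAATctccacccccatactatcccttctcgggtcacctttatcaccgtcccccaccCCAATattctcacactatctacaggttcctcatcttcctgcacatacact
The 250 bases before the first Igfbp2 start held 3 GC boxes, the 231 bases shown for Igfbp5 held none of the 3 motifs, and the 250 bases of Igfbp6 held 2 CCAAT boxes and 1 TATA box. In all 32851 mouse promoter windows of 250 bases, longer than the Igfbp5 sequence, 32.7% held a GC box, 33.8% a CCAAT box and 12.4% a TATA box, and the motifs could overlap each other. Over full windows of 250 bases, which for Igfbp5 include bases not shown, G and C made up 67.2% for Igfbp2, 58.8% for Igfbp5 and 49.6% for Igfbp6. The median over all windows was 52.4%. A match to letters is a description and does not show that a factor binds there.

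How abundant the members were can be compared between genes only per exon length, as CPM per kilobase. In the 2-mo WT aorta Igfbp7, a binding protein with low affinity for IGFs that is secreted into vessel walls, was the highest at 1456 ± 63.3 CPM per kilobase (SD, n = 6), far above the others. Igfbp5 (77.0 ± 11.5), Igfbp4 (61.7 ± 6.97) and Igfbp6 (60.5 ± 9.55) followed, and neighbours among these 3 overlapped in their ranges over mice. Igf2r stood apart below them at 24.8 ± 2.07, then came Igf1 (6.72 ± 1.15), Igf1r (6.60 ± 0.576) and Igfbp2 (3.79 ± 1.36), each of which overlapped the next. Igf2 (1.15 ± 0.266) and Igfbp3 (0.922 ± 0.371) were the lowest and overlapped. Igf1 was thus the main ligand transcript, with 85.3% ± 3.65 of the ligand level per length in 2-mo WT.

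The order was not the same in the other groups. In HGPS Igfbp4 (75.9 ± 9.41 CPM per kilobase) stood above Igfbp5 (52.5 ± 5.18) without overlap, and Igfbp2 had moved from the eighth to the sixth place at 11.5 ± 6.12. In 24-mo WT Igfbp2 was in the fourth place at 60.3 ± 20.3 CPM per kilobase, where it overlapped Igfbp4 above it and Igfbp6 below it, and Igfbp5 (141 ± 34.1) had no overlap with Igfbp4. Igf1 fell from the sixth to the eighth place in 24-mo WT, at 3.22 ± 0.558. Igfbp7 stayed first in all 3 groups.

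**Figure D1:**
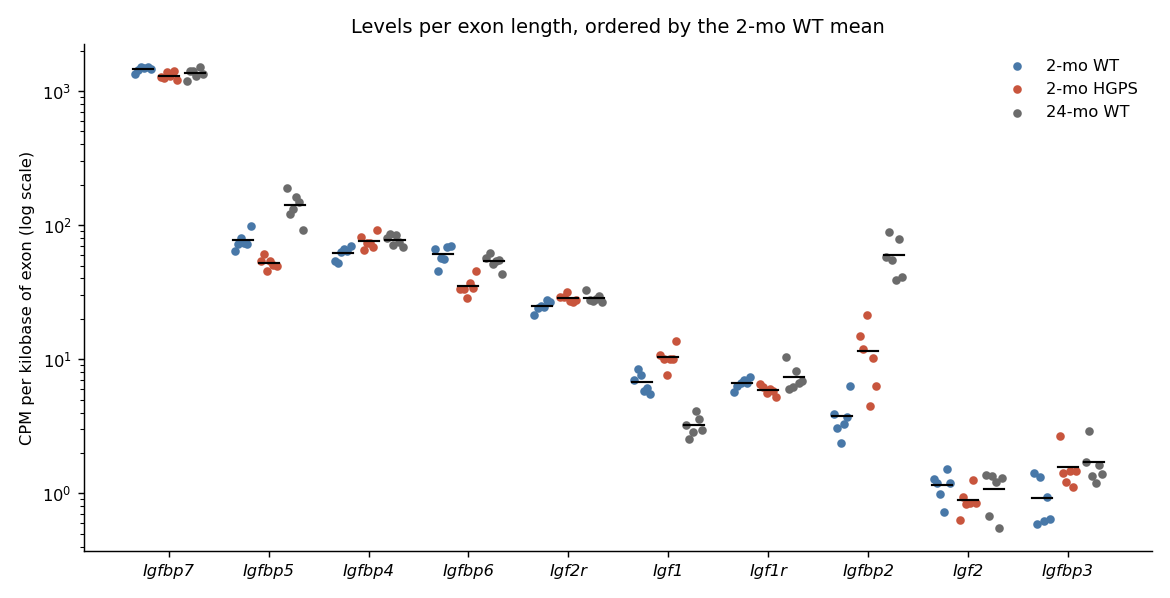
Level of each member per kilobase of exon (log axis, CPM per kilobase) in every mouse, ordered by the 2-mo WT mean, with black bars for group means (n = 6 per group). Igfbp7 lies above 1000 in every mouse, and Igfbp2 climbs from a mean of 3.79 in 2-mo WT to 60.3 in 24-mo WT.

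The comparison of HGPS with 2-mo WT mice asked which members differed between these groups of young mice. Of the 10 members 5 passed the test as higher (Igf1, Igf2r, Igfbp2, Igfbp3 and Igfbp4), 3 as lower (Igfbp5, Igfbp6 and Igfbp7) and 2 did not pass (Igf2 and Igf1r). Of all tested genes 43.2% passed in this comparison, with 22% higher and 21.2% lower. At the stricter cut-offs 3 members remained (Igf1 and Igfbp2 higher, Igfbp6 lower), against 9.5% of all genes (5.27% higher and 4.23% lower). The median log2 change was 0.02 over the members and 0.0026 over all tested genes.

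Igf1, the ligand that mediates most growth hormone action, was 54.3 to 83.3 CPM in the 2-mo WT mice (median 64.5) and 76.0 to 135 CPM in the HGPS mice (median 100.05). Only the lowest HGPS mouse reached into the WT range, and in 35 of 36 pairs the HGPS mouse was the higher. Igf1 was 1.54-fold higher in HGPS (log2 change 0.63, SE 0.13, adjusted p = 0.000858). Marker scores (the mean log2 CPM of a cell type's markers) were also entered as covariates, and the macrophage and smooth muscle scores of the HGPS mice did not overlap those of either WT group, so that neither score can be told apart from genotype. With the brown fat score the log2 change was 0.47 (adjusted p = 0.0763), and with the macrophage score it was 0.83 (adjusted p = 0.0205). Igf2, the fetal growth ligand, had 4.14 to 8.61 CPM in 2-mo WT (median 6.84) and 3.65 to 7.23 CPM in HGPS (median 4.82), with overlapping groups and a log2 change of −0.36 that did not pass (SE 0.22, adjusted p = 0.196).

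Among the receptors, Igf2r had 200.6 to 255 CPM in 2-mo WT (median 229) and 249 to 294 CPM in HGPS (median 265), groups that overlapped at their edges. The fitted change was 1.15-fold higher in HGPS (log2 change 0.20, SE 0.067, adjusted p = 0.0192), and it no longer passed without HGPS_2mo replicate 3 (0.17, adjusted p = 0.0571) or WT_2mo replicate 1 (0.17, adjusted p = 0.0578). With the brown fat score it was 0.16 (adjusted p = 0.274) and with the macrophage score 0.32 (adjusted p = 0.0572). Igf1r, the signalling receptor, had 95.9 to 124 CPM in 2-mo WT (median 111) and 88.5 to 110.2 CPM in HGPS (median 99.5). Its log2 change of −0.16 did not pass (SE 0.11, adjusted p = 0.267). The ratio of Igf2r to Igf1r per length was 3.51 to 4.15 in 2-mo WT and 4.47 to 5.64 in HGPS, without overlap. In 24-mo WT this ratio was 3.16 to 4.602, which overlapped HGPS. No test was made of the ratio, and how many other pairs of genes separate in this way was not counted.

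Igfbp2, a binding protein of fetal and adult tissues, varied most among the HGPS mice. Its level was 4.4 to 11.7 CPM in 2-mo WT (median 6.49) and 8.28 to 39.5 CPM in HGPS (median 20.5). HGPS replicates 1, 2 and 3 had 27.5, 22.1 and 39.5 CPM, and replicates 4, 5 and 6 had 8.28, 18.97 and 11.6 CPM. The sample labels of these sets of replicates came from separate runs of numbers, as did those of the WT groups. Whether the spread follows this numbering was not tested. The lowest HGPS mice lay within the WT range and the highest well above it, with a coefficient of variation of 53.0% in HGPS against 36% in 2-mo WT. The fitted change was 3.00-fold (log2 change 1.58, SE 0.33, adjusted p = 0.000808). It was 1.46 with the brown fat score as a covariate (adjusted p = 0.0519) and 1.27 with the macrophage score (adjusted p = 0.106). Without the 95-d-old WT mouse, which had the highest Igfbp2 of its group, the log2 change was 1.80.

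Igfbp5 and Igfbp6 were the members whose mice did not overlap between HGPS and 2-mo WT, both lower in HGPS, where 21.9% of all tested genes had groups that did not overlap (11% higher and 10.9% lower). Igfbp5, which is deposited in the matrix, had 388 to 589.9 CPM in 2-mo WT (median 441) and 273 to 365 CPM in HGPS (median 314). It fell by 0.55 on the log2 scale (SE 0.13, adjusted p = 0.0028), and with the macrophage score as a covariate the log2 change was −0.07 (adjusted p = 0.819). Igfbp6, which binds IGF2 with preference, had 50.3 to 77.2 CPM in 2-mo WT (median 68.5) and 31.6 to 50.2 CPM in HGPS (median 37.5). The lowest WT mouse lay just above the highest HGPS mouse. Igfbp6 fell by 0.78 on the log2 scale (SE 0.11, adjusted p = 3.02e-05), by 0.77 with the brown fat score and by 0.88 with the macrophage score as a covariate, both past the test.

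The other binding proteins moved less or with less precision. Igfbp4, an inhibitor of IGF action, had 232 to 309 CPM in 2-mo WT (median 282) and 289 to 405 CPM in HGPS (median 326), with overlap, and was 1.23-fold higher (log2 change 0.30, SE 0.089, adjusted p = 0.0107). With the macrophage score the log2 change was 0.30 and did not pass (adjusted p = 0.193). Igfbp3, the main carrier of IGFs in blood, had 1.84 to 4.45 CPM in 2-mo WT (median 2.48) and 3.51 to 8.41 CPM in HGPS (median 4.49). Its log2 change of 0.74 (SE 0.27, adjusted p = 0.0339) no longer passed without HGPS replicate 1, the highest mouse (log2 change 0.52, adjusted p = 0.112), nor without WT_2mo replicate 2, 4, 5 or 6 (log2 changes of 0.64, 0.66, 0.74 and 0.65, with adjusted p of 0.0811, 0.0745, 0.0535 and 0.0765). It was 0.46 with the brown fat score (adjusted p = 0.411) and 0.44 with the macrophage score (adjusted p = 0.543). Igfbp7 had 1628 to 1828 CPM in 2-mo WT (median 1777) and 1463 to 1705 CPM in HGPS (median 1554), and its fall of 0.16 on the log2 scale was at the threshold (SE 0.063, adjusted p = 0.0498). That call was lost without any one of HGPS_2mo replicates 1, 2, 4 and 6, WT_24mo replicates 3 and 6 and WT_2mo replicates 3, 4, 5 and 6, where the log2 change was −0.16 to −0.14 and the adjusted p 0.054 to 0.107. It was also lost with the brown fat score (−0.05, adjusted p = 0.737) and the macrophage score (−0.23, adjusted p = 0.152).

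With the smooth muscle score as a covariate in edgeR no member and no gene of the wider IGF list passed in this comparison (2 of 10 members and 11 of 109 list genes had an unadjusted p under 0.05), and 0.572% of all genes did. The log2 changes in that fit were 0.39 for Igf1, 0.95 for Igfbp2, −0.14 for Igfbp5 and −0.76 for Igfbp6.

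**Figure D2:**
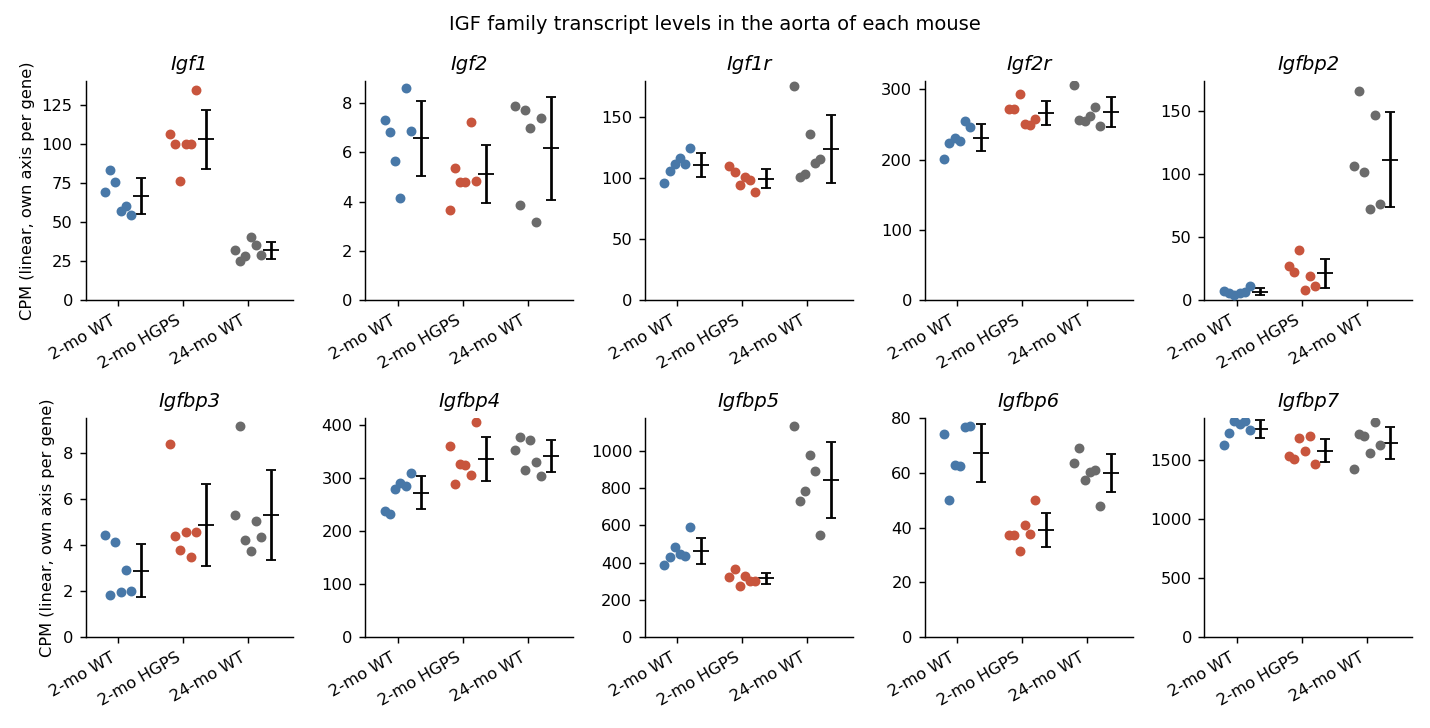
CPM of each member in every mouse (points), with the mean and SD of 6 mice beside each group (black) on a linear axis that starts at 0 in each panel. Igf1 is highest in HGPS (mean 103) and lowest in 24-mo WT (mean 31.8), while Igfbp2 and Igfbp5 are highest in 24-mo WT (means 111 and 846).

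The comparison of 24-mo with 2-mo WT mice asked which of the same genes differed between the WT age groups, with the same 2-mo WT mice as controls. Of the 10 members 5 passed as higher (Igf2r, Igfbp2, Igfbp3, Igfbp4 and Igfbp5), 1 as lower (Igf1) and 4 did not pass, against 11.7% of all tested genes (6.29% higher and 5.38% lower). At the stricter cut-offs 3 members remained (Igfbp2 and Igfbp5 higher, Igf1 lower), against 2% of all genes (1.28% higher and 0.717% lower). The median log2 change was 0.19 over the members and 0.0083 over all tested genes.

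Igf1 was 25.3 to 40.8 CPM in the 24-mo WT mice (median 30.6), below every 2-mo WT mouse (54.3 to 83.3 CPM). It was 2.09-fold lower with age (log2 change −1.06, SE 0.13, adjusted p = 2.41e-05). The part of the lower fibroblast markers in this fall was not tested. Igfbp2 was 71.8 to 165 CPM in the 24-mo WT mice (median 104), above every 2-mo WT mouse, the highest of which had 11.7 CPM. Igf1 and Igfbp2 were the 2 members whose groups did not overlap here, where 6.28% of all genes did not overlap (3.2% higher and 3.08% lower). Igfbp2 was 15.7-fold higher with age (SE 0.34 on the log2 scale, adjusted p = 2.49e-07), and over 29 alternative analyses its log2 change lay between 3.83 and 4.19.

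Igfbp5 rose alongside its neighbour Igfbp2. It had 549 to 1136 CPM in 24-mo WT (median 841) against 388 to 589.9 CPM in 2-mo WT, with overlap only between the lowest 24-mo and the 95-d-old 2-mo mouse. The fitted change was 1.83-fold (log2 change 0.87, SE 0.14, adjusted p = 0.000209). Igf2r (248 to 307 CPM, median 259) and Igfbp4 (304 to 378 CPM, median 342) were each slightly above 2-mo WT with overlap, by 0.21 (SE 0.067, adjusted p = 0.0472) and 0.33 (SE 0.089, adjusted p = 0.0202) on the log2 scale. The call of Igf2r was lost in 16 of 29 alternatives, among them those without HGPS_2mo replicate 1, 2 or 6, WT_24mo replicate 1, 2, 3, 4 or 5, or WT_2mo replicate 1, 2, 3 or 4 (log2 changes of 0.17 to 0.22, adjusted p 0.0501 to 0.112). That of Igfbp4 was lost without WT_2mo replicate 2 (log2 change 0.29, adjusted p = 0.0524).

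Igfbp3 had 3.76 to 9.18 CPM in 24-mo WT (median 4.71), with overlap, a log2 change of 0.87 (SE 0.27) and an adjusted p of 0.046 that was lost in 13 of 29 alternatives. Without WT_24mo replicate 2, the highest mouse, its log2 change was 0.65 (adjusted p = 0.124). It also no longer passed without HGPS_2mo replicate 2, 4 or 6, WT_24mo replicate 1 or 5, or WT_2mo replicate 2, 4, 5 or 6 (log2 changes of 0.76 to 0.88, adjusted p 0.0526 to 0.103). Igf2, Igf1r, Igfbp6 and Igfbp7 did not pass, with log2 changes of −0.10 (adjusted p = 0.837), 0.16 (adjusted p = 0.394), −0.17 (adjusted p = 0.386) and −0.10 (adjusted p = 0.349). The 95% intervals of these changes ran from −0.57 to 0.38 for Igf2, from −0.07 to 0.39 for Igf1r, from −0.41 to 0.07 for Igfbp6 and from −0.23 to 0.03 for Igfbp7.

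The direct comparison of HGPS with 24-mo WT mice tested whether the changes seen in HGPS and with age differed, since both used the same controls and these drop out of the contrast. Of the 10 members 1 was higher in HGPS (Igf1), 4 were lower (Igf1r, Igfbp2, Igfbp5 and Igfbp6) and 5 did not pass, against 47.3% of all tested genes (23.8% higher and 23.6% lower). At the stricter cut-offs 4 members remained (Igf1 higher and Igfbp2, Igfbp5 and Igfbp6 lower), against 12.1% of all genes (6.02% higher and 6.11% lower). Age and genotype both differed in this comparison. Igf1 was 76.0 to 135 CPM in HGPS and 25.3 to 40.8 CPM in 24-mo WT, without overlap (22.2% of all genes, 10.9% higher and 11.3% lower), a 3.22-fold difference (log2 1.69, SE 0.14, adjusted p = 1.66e-08). Igf1 thus lay above the 2-mo WT controls in HGPS and below them at 24 mo.

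Igfbp5 also moved in opposite directions, lower than the 2-mo WT controls in HGPS and higher at 24 mo. The HGPS mice (273 to 365 CPM) and the 24-mo WT mice (549 to 1136 CPM) did not overlap, and the difference was 2.68-fold (log2 −1.42, SE 0.14, adjusted p = 1.49e-07). Igfbp2 was above the controls in both groups but less so in HGPS. Its HGPS mice (8.28 to 39.5 CPM) lay below all 24-mo WT mice (71.8 to 165 CPM), by 5.24-fold (log2 −2.39, SE 0.31, adjusted p = 5.55e-06). Igfbp6 differed by −0.61 on the log2 scale (SE 0.11, adjusted p = 0.000221), with 31.6 to 50.2 CPM in HGPS, 48.02 to 69.0 in 24-mo WT and overlap in 1 of 36 pairs. With the smooth muscle score as a covariate Igf1 (adjusted p = 0.0392) and Igfbp2 (adjusted p = 0.0475) still passed, while Igfbp5 (log2 −0.93, adjusted p = 0.185) and Igfbp6 (log2 −0.59, adjusted p = 0.357) did not.

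Igf1r differed by −0.32 on the log2 scale (SE 0.11, adjusted p = 0.0231) with overlap (88.5 to 110.2 CPM in HGPS and 101 to 175 in 24-mo WT). It no longer passed without HGPS_2mo replicate 6 (log2 −0.29, adjusted p = 0.0527) or WT_24mo replicate 1 (log2 −0.20, adjusted p = 0.0569), nor with the brown fat score (log2 −0.38, adjusted p = 0.0868) or the macrophage score (log2 0.14, adjusted p = 0.479). For Igf2r, Igfbp3 and Igfbp4, which were higher than the 2-mo WT controls in both groups, the difference between HGPS and 24-mo WT did not pass. The 95% interval of that difference ran from −0.15 to 0.14 for Igf2r, from −0.69 to 0.44 for Igfbp3 and from −0.22 to 0.16 for Igfbp4 (log2). Igf2 (log2 −0.27, adjusted p = 0.336) and Igfbp7 (log2 −0.06, adjusted p = 0.472) did not pass either.

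**Figure D3:**
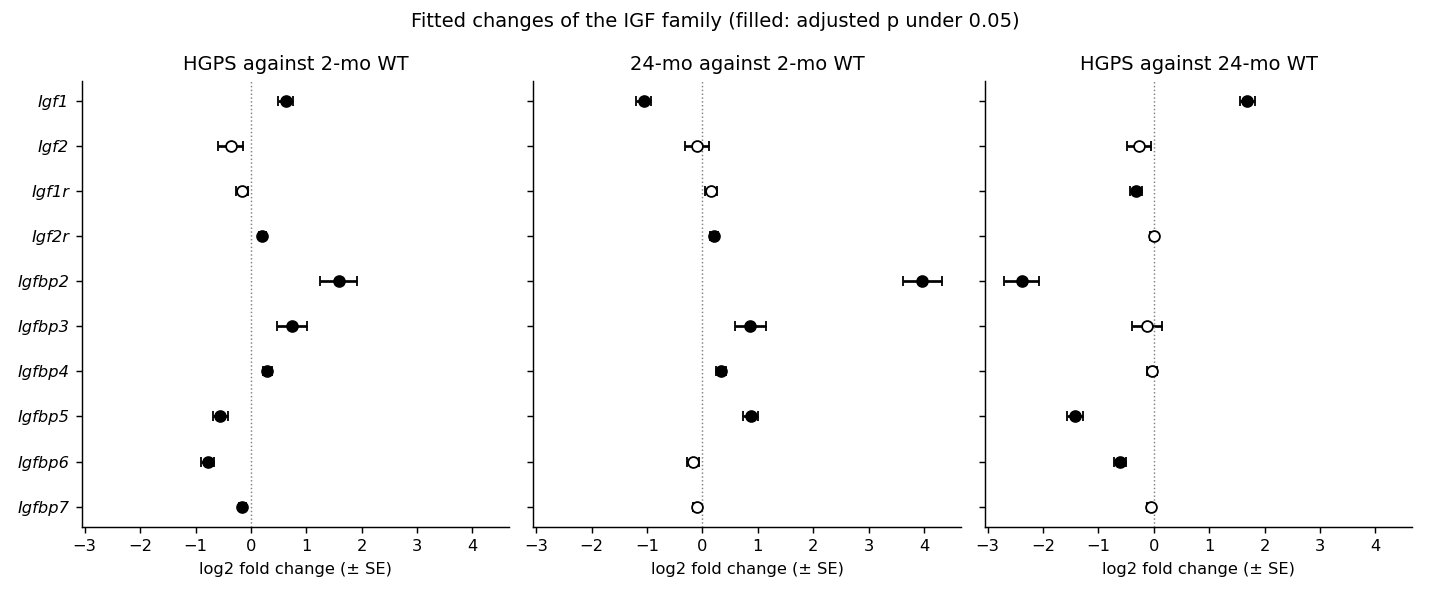
Fitted log2 fold changes of the 10 members with standard errors in the 3 comparisons, on a common axis; filled points passed the test. Igf1 lies at 0.63 in HGPS and −1.06 at 24 mo, Igfbp5 at −0.55 and 0.87, and Igfbp2 at 1.58 and 3.97.

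Sums over the members put these values side by side. The level per length of Igfbp2 to Igfbp6, divided by that of the 2 ligands, was 18.1 to 36.6 in 2-mo WT (median 25.8), 13.5 to 20.1 in HGPS (median 15.6) and 58.0 to 112 in 24-mo WT (median 78.7). The 24-mo WT mice lay above all others, and the HGPS mice overlapped the lower end of 2-mo WT. Igfbp7 was left out of this ratio because its level would have covered that of the others. The summed ligands were 11.3 ± 1.89 CPM per kilobase in HGPS, 7.87 ± 1.19 in 2-mo WT and 4.29 ± 0.685 in 24-mo WT, while the summed Igfbp2 to Igfbp6 were 177 ± 11.3, 204 ± 23.8 and 334 ± 49.8 (SD, n = 6). No test is given for these sums. They are transcript levels in whole tissue and not protein, and circulating IGF1, which comes mostly from liver, is not measured by them.

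The make-up of the binding proteins also differed. In 2-mo WT Igfbp5 (37.8% ± 3.12), Igfbp4 (30.3% ± 1.69) and Igfbp6 (29.7% ± 3.40) shared the sum of Igfbp2 to Igfbp6 almost evenly, and Igfbp2 had 1.83% ± 0.471. In HGPS Igfbp4 had the largest share (42.8% ± 3.03) and Igfbp2 had 6.58% ± 3.59. In 24-mo WT Igfbp2 had 17.9% ± 4.83, more than Igfbp6 at 16.2% ± 1.06, and Igfbp5 had 41.9% ± 5.96. Among the ligands Igf1 made up 91.9% ± 2.19 in HGPS and 75.1% ± 7.16 in 24-mo WT.

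**Figure D4:**
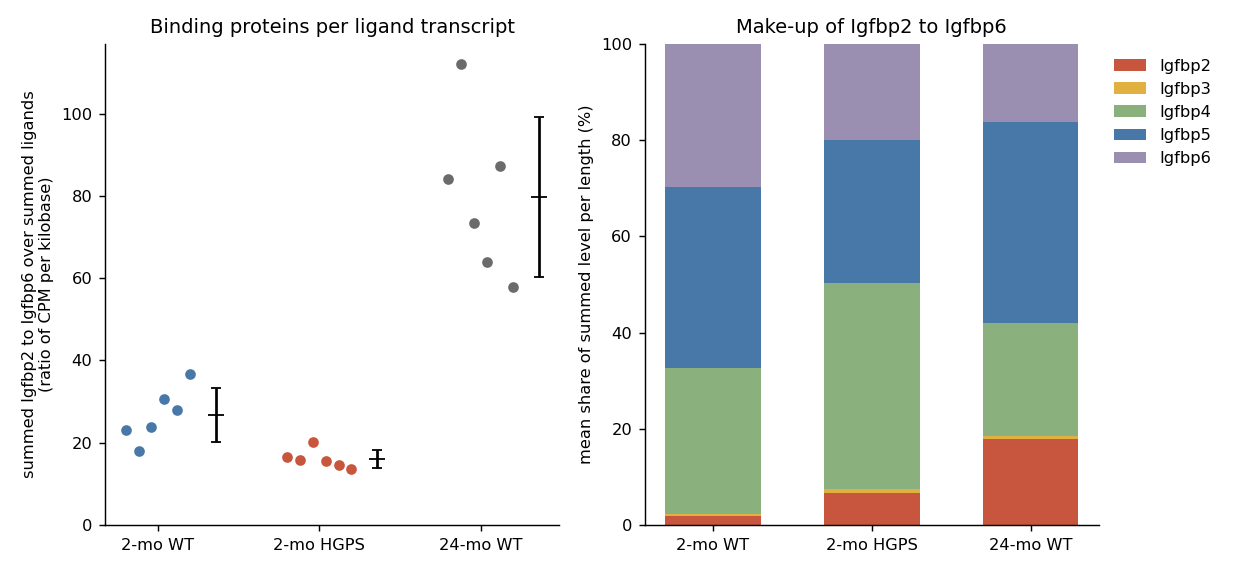
Left, the summed level per length of Igfbp2 to Igfbp6 over that of Igf1 and Igf2 in each mouse (points; mean and SD in black, n = 6). Right, the mean share of each binding protein in the sum: the ratio averages 26.7 in 2-mo WT, 16 in HGPS and 79.8 in 24-mo WT, and the share of Igfbp2 rises from 1.83% to 17.9% with age.

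The genes around the family were read from a list of 121 genes in 7 groups, of which 109 were tested. In HGPS against 2-mo WT 28 were higher and 18 lower (42.2%, near the 43.2% of all genes), with a median log2 change of 0.01. In 24-mo against 2-mo WT 11 were higher and 9 lower (18.3% against 11.7% of all genes), with a median of 0.03. Igfbp1, the hepatic binding protein that lies next to Igfbp3, had 2 reads in all 18 libraries and was not tested.

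Among 14 tested genes listed for how much IGF is free, 6 were higher and 2 lower in HGPS against 2-mo WT, 57.1% against 43.2% of all tested genes. In 24-mo against 2-mo WT 4 were higher and 3 lower, 50% against 11.7% of all tested genes. Pappa, the protease that cuts IGFBP4 and thereby frees IGFs, had 2.94 to 4.15 CPM in 2-mo WT (median 3.42) and 6.35 to 12.3 CPM in HGPS (median 10.2), without overlap. It was 2.78-fold higher (log2 1.48, SE 0.19, adjusted p = 6.88e-06), and at 24 mo, with 3.95 to 6.73 CPM, it was 1.59-fold higher (adjusted p = 0.0268) with overlap. Its relative Pappa2, which cuts IGFBP3 and IGFBP5, was 1.53-fold higher in HGPS (adjusted p = 0.0182) and did not pass at 24 mo (log2 0.39, adjusted p = 0.235). Adam12, a protease of IGFBP3 and IGFBP5, was 4.8-fold higher in HGPS (1.82 to 6.61 CPM in 2-mo WT, 5.97 to 31.2 in HGPS, adjusted p = 0.000131).

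Stc2, an inhibitor of PAPP-A, did not pass in any comparison (log2 0.07 in HGPS and 0.16 at 24 mo), nor did Igfals, the partner of Igfbp3 in blood (log2 1.12 in HGPS, SE 0.50, adjusted p = 0.0775). Mmp2, a matrix protease that also cuts binding proteins, was, like Igf1, higher in HGPS and lower at 24 mo, with 170.2 to 235 CPM in 2-mo WT, 279 to 418 in HGPS and 105 to 151 in 24-mo WT. It was 1.72-fold higher in HGPS (adjusted p = 1.38e-05) and 1.52-fold lower at 24 mo (adjusted p = 0.000749), without overlap in both comparisons. Prss23, a serine protease whose action on binding proteins was not tested here, was 1.33-fold lower in HGPS (adjusted p = 0.000783) and 1.28-fold higher at 24 mo (adjusted p = 0.00841). At 24 mo Mmp3 was 1.93-fold higher (adjusted p = 0.000169) and Htra3 1.49-fold lower (adjusted p = 0.000894).

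**Figure D5:**
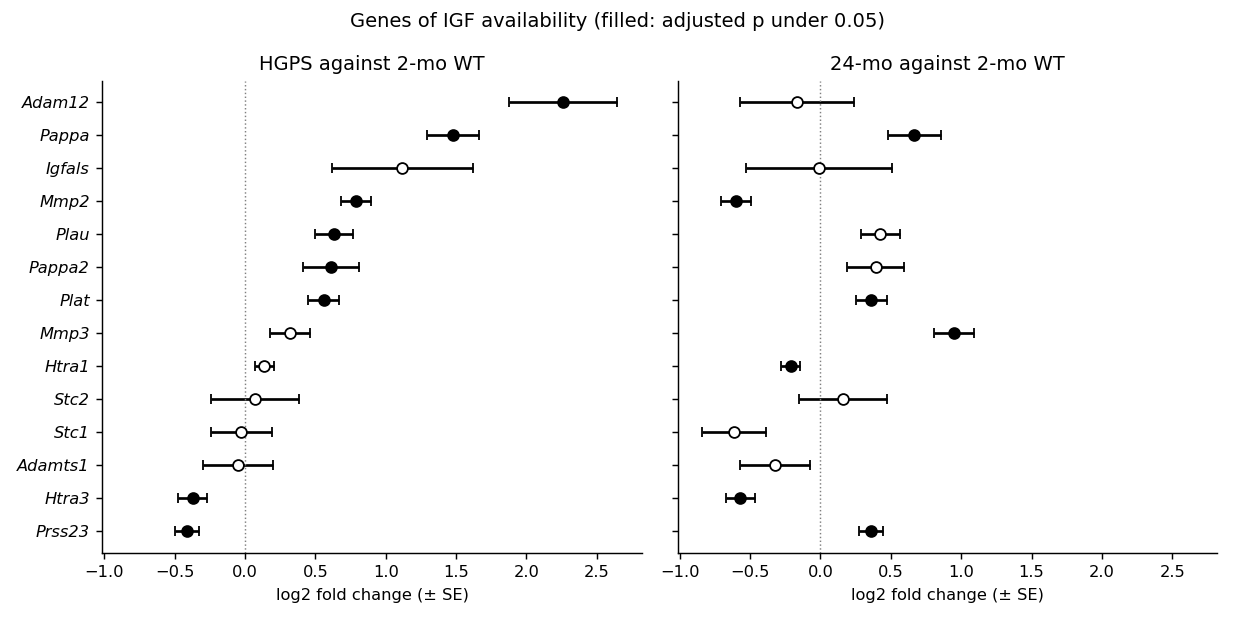
Log2 fold changes with standard errors of the 14 tested genes of IGF availability in HGPS and at 24 mo, both against the same 2-mo WT mice; filled points passed the test. Pappa lies to the right in both comparisons (1.48 and 0.67), and Mmp2 lies at 0.79 in HGPS and −0.60 at 24 mo.

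Of the genes that control Igf2, the imprinted neighbour H19 had 1.19 to 2.57 CPM in 2-mo WT (median 2.10), 3.53 to 23.3 CPM in HGPS (median 7.47) and 0.308 to 1.44 CPM in 24-mo WT (median 0.97). It was 5.48-fold higher in HGPS without overlap (log2 2.45, SE 0.41, adjusted p = 0.000117), and its change at 24 mo did not pass (log2 −1.06, adjusted p = 0.161). Igf2 itself did not pass in either comparison. Igf2bp2, whose protein binds Igf2 mRNA, had 2.52 to 4.33 CPM in 2-mo WT and 0.611 to 1.56 in 24-mo WT, 3.51-fold lower without overlap (adjusted p = 1.89e-05), and did not pass in HGPS (log2 0.46, adjusted p = 0.0671). Plagl1, an imprinted regulator of this gene network, was 1.47-fold lower at 24 mo (adjusted p = 0.0252).

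Upstream of Igf1, the growth hormone receptor Ghr had 100.4 to 126 CPM in 2-mo WT, 107 to 171 in HGPS and 76.7 to 121 in 24-mo WT, and passed in neither comparison with the controls (adjusted p = 0.0535 and 0.416). HGPS differed from 24-mo WT (log2 0.44, adjusted p = 0.00369). Of 8 tested genes of this axis 1 was lower in HGPS, 12.5% against 43.2% of all tested genes.

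Downstream of the receptors, the insulin receptor Insr, which can pair with Igf1r, had 114 to 150.0 CPM in 2-mo WT (median 132) and 90.1 to 115 in HGPS (median 96.4). It was 1.36-fold lower in HGPS (adjusted p = 0.000247) and did not pass at 24 mo (log2 0.07, adjusted p = 0.637). Irs1, a docking protein of both receptors, was 1.42-fold lower at 24 mo (adjusted p = 0.00795) and did not pass in HGPS (log2 −0.28, adjusted p = 0.0616). Irs2 (log2 −0.57, adjusted p = 0.0873) and the adaptor Grb10 (log2 0.17, adjusted p = 0.13) did not pass in HGPS. The adaptor Grb14 was 1.80-fold lower in HGPS without overlap (adjusted p = 2.48e-05), and Sh2b2 was 3.52-fold higher (adjusted p = 0.00123). Of 16 tested genes of this group 5 were higher and 3 lower in HGPS, 50% against 43.2% of all tested genes. At 24 mo 2 were higher and 1 lower, 18.8% against 11.7%.

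Among targets of FOXO factors, which insulin and IGF signalling keep out of the nucleus, Pdk4 was 2.90-fold higher in HGPS (adjusted p = 0.000558), while Fbxo32 was 2.02-fold lower (adjusted p = 1.06e-06) and Pik3ip1 1.60-fold lower (adjusted p = 0.000222). Cdkn1b was lower in HGPS by 0.49 (adjusted p = 7.24e-05) and at 24 mo by 0.37 (adjusted p = 0.00373) on the log2 scale. Of 17 tested genes of this group 4 were higher and 3 lower in HGPS, 41.2% and near the 43.2% of all tested genes. Among feedback inhibitors of RAS-ERK signalling, Dusp6 (1.61-fold, adjusted p = 0.000783), Spry4 (1.57-fold, adjusted p = 0.00986) and Spry1 (1.44-fold, adjusted p = 0.0067) were higher at 24 mo. Of 19 tested genes of the RAS-ERK group 4 were higher and 0 lower at 24 mo, 21.1% against 11.7% of all tested genes. Cited2, listed in the FOXO group, was 1.66-fold lower at 24 mo (adjusted p = 0.0334). In the PI3K-AKT-mTOR group 5 of 30 genes were higher and 6 lower in HGPS (36.7% against 43.2% of all tested genes), and 1 was lower at 24 mo (3.33% against 11.7%).

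Set against 24-mo WT directly, HGPS was higher in H19 (11.4-fold, adjusted p = 4.31e-06), Adam12 (5.38-fold, adjusted p = 5.21e-05), Igf2bp2 (4.85-fold, adjusted p = 1.71e-07), Sh2b2 (3.26-fold, adjusted p = 0.00162) and Mmp2 (2.62-fold, adjusted p = 1.19e-08). It was lower in Fbxo32 (2.27-fold, adjusted p = 8e-08), Prss23 (1.70-fold, adjusted p = 9.09e-07), Irs2 (1.61-fold, adjusted p = 0.0366), Mmp3 (1.55-fold, adjusted p = 0.00138) and Pik3ip1 (1.5-fold, adjusted p = 0.000658). Of the 109 list genes 23 were higher and 24 lower in this comparison, 43.1% against 47.3% of all genes.

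For the 4 members past the stricter cut-offs, the genes most like them over the 18 mice were sought among 10699 genes by the mean absolute difference of log2 CPM, each gene centred on its own mean. Nearest to Igf1 were Lox (0.135), the enzyme that cross-links collagen and elastin, Nnmt (0.192) and the noncoding RNA Rian (0.196). The mean absolute deviation of Igf1 itself was 0.630. Lox had 438 CPM in 2-mo WT, 791 in HGPS and 229 in 24-mo WT. Among those nearest to Igfbp5 were Fbln7 (0.166) and Etv1 (0.171), and nearest to Igfbp6 were Naa80 (0.108), Scara5 (0.126) and Dcp1b (0.130). For Igfbp2 the nearest were Nfasc (0.521), Gcnt4 (0.628) and Tnnt2 (0.695), at larger distances. Its own deviation of 1.54 was also larger, against 0.527 for Igfbp5 and 0.337 for Igfbp6. These distances grow with a gene's own spread, so they cannot be ranked between members. Groups differ in all of these genes, so likeness over 18 mice rests largely on 3 group levels.

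Some members share sequence with annotated neighbours. Igf2 shares 3596 exon bases with Gm49394, which had 0 reads, and 98 bases with the antisense gene Igf2os, and Igfbp7 shares 85 bases with Polr2b on the other strand. The libraries kept the strand, but how the counting used it was not stated for these files. The level of Igf2 is therefore that of the locus.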

How the data were processed

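RNA of 18 descending aortas was sequenced as ribosome-depleted, stranded, paired-end total RNA. The authors mapped reads with salmon to GENCODE M23 transcripts (GRCm38.p6) and summed them per gene with tximport, and the deposited estimated counts are whole numbers. The submitters' processing notes also name Bowtie 0.12.2, with no role given. Gene symbols, positions and merged exon lengths came from GENCODE M21 (54107 of 54281 IDs found), and promoters from RefSeq. Counts were tested with edgeR 4.0.16 (quasi-likelihood, TMM) where 6 or more mice had 10 counts or more, all 3 groups in one fit, with Benjamini-Hochberg adjustment. On data simulated for HGPS against 2-mo WT, 67.2% of 1.5-fold and 98.5% of 4-fold changes were recovered. Few genes were changed there (67 at 1.5-fold and 66 at 4-fold among 15210), while 43.2% of genes passed in the data. Adjusted p depends on that share, so these recoveries do not give the power of the reported test. DESeq2 1.42.0, other scalings and filters, marker scores as covariates and leaving out each mouse were alternatives. Log2 CPM used a prior count of 2.

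The 10 members and all gene lists were chosen with earlier results of these data known. The rule for named genes was all members, the 5 largest changes per direction past the test among the listed pathway genes whose mean was 50 counts or more, and Igfbp1, Igfals, Insr, Pappa, Pappa2, Stc2, Ghr, Grb10, Irs1, Irs2 and H19. Mice with the same replicate number were different animals (correlations of −0.16 to 0.17 between their deviations), so they were not paired. Standard errors and intervals rest on the spread between mice, as estimated in the fit. Protein sequences were not used here. One gene near Igfbp5 in its pattern is not reported here.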

Additional observations from a re-analysis of the deposited data

Results flagged for a closer look

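Of 30 sets of 6 mice (10 members in 3 groups), 2 held a mouse that stood far from the others by Dixon's ratio, where chance alone flags about 1 set in 20. Both concerned Igfbp3, one of the 2 least abundant members. In HGPS, replicate 1 had 8.41 CPM and the nearest other mouse 4.58 CPM (a ratio of 0.782). In 24-mo WT, replicate 2 had 9.18 CPM and the nearest other mouse 5.33 CPM (ratio 0.710). Without the first, the log2 change of Igfbp3 in HGPS against 2-mo WT was 0.52, and without the second its change at 24 mo was 0.65, neither past the test.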

How the results depend on the processing

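Each member's change was recomputed in 29 other analyses per comparison, 870 values in all, of which 772 kept their direction and side of the threshold, 75 lost the call and 23 changed sign. Igf1, Igfbp2 and Igfbp5 at 24 mo, and Igf1 and Igfbp2 in HGPS against 24-mo WT, passed in all 29. At the stricter cut-offs the members past numbered 3 in HGPS, 3 at 24 mo and 4 in HGPS against 24-mo WT, and the list genes 11, 4 and 8. With the brown fat score as a covariate 3 members and 16 of 109 list genes passed in HGPS (20.9% of all genes), and 28 list genes in HGPS against 24-mo WT (26.8%). With the macrophage score 2 members and 12 list genes passed in HGPS (12.8% of all genes), and 22 list genes in HGPS against 24-mo WT (18.4%). With the smooth muscle score 0 members and 0 list genes passed in HGPS (2 and 11 at an unadjusted p under 0.05; 0.572% of all genes), and 2 members and 4 list genes in HGPS against 24-mo WT (1.83%). Leaving out 1 mouse at a time gave 6 to 8 members in HGPS, 3 to 6 at 24 mo and 4 to 5 in HGPS against 24-mo WT, and 38 to 52, 13 to 21 and 40 to 51 list genes.

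The changes of sign concerned values that did not pass under the alternative. In HGPS against 2-mo WT, Igf1r was 0.29 with the macrophage score and 0.29 with the smooth muscle score, Igf2 0.20 and Igfbp3 −0.29 with the smooth muscle score (log2). In HGPS against 24-mo WT with the smooth muscle score Igf2 was 0.43, Igf1r 0.21, Igf2r 0.14, Igfbp4 0.0033 and Igfbp7 0.016. With the macrophage score Igf1r was 0.14 and Igf2r 0.11, with the brown fat score Igfbp4 was 0.093 and Igfbp7 0.063, and Igf2r was 0.0042 with library totals alone and 0.011 with no filter. Leaving out single mice gave −0.20 to 0.041 for Igf2 at 24 mo and, in HGPS against 24-mo WT, −0.043 to 0.032 for Igf2r, −0.34 to 0.091 for Igfbp3 and −0.091 to 0.0099 for Igfbp4. The cause was not tested. With the replicate number as a replicate block, 8, 5 and 5 members and 46, 17 and 44 list genes passed, and the number marks no shared animal. In the 3 comparisons 2, 1 and 1 of the 6 mice of the first-named group correlated best with the mouse of their own number.

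By length of the longest transcript 8 of 10 members kept their place in 2-mo WT, and the ratio of Igfbp2 to Igfbp6 over ligands was 20.5 rather than 26.7. Low counts limit Igf2 and Igfbp3, whose lowest libraries held 51 and 24 reads.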

Other observations

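The oldest mouse of the 2-mo WT group was 95 d old, against 62 d for the other 5, and was looked at after its values had been seen. It had the lowest Igf1 of its group (54.3 CPM, others 57.3 to 83.3) and the highest Igfbp2 (11.7 CPM, others 4.4 to 7.21), Igfbp5 (589.9 CPM, others 388 to 484) and Igfbp4 (309 CPM, others 232 to 291), which are 4 of the 6 members that passed in 24-mo against 2-mo WT. In each of these its value lay on the side of the 24-mo median (30.6, 104, 841 and 342 CPM). It also had the highest Igf1r (124 CPM) and Igfbp6 (77.2 CPM), which did not pass with age, and the second-highest Igf2r (247 CPM). Its Igfbp3 (2.01 CPM, the fourth from the highest) lay away from the 24-mo median of 4.71 CPM. This is 1 mouse, and no test can be made of it.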
